A study of Mus musculus with 2 samples.

Results

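Cholesterol synthesis and transport genes were followed across the cell types of the mouse lung, as 30 named genes out of 32286 features counted in 2 single-cell libraries. The genes were chosen by symbol and fall into 18 enzymes of synthesis, 5 regulators and 7 genes of transport and storage. All 30 symbols were found in the files, and all 30 are protein-coding genes of the mouse annotation. The lungs, taken whole, were those of female mice of the common inbred strain BALB/c at an age of 9 to 10 weeks, of which no genetic change is stated. The control group received control media (CM) into the vein for 3 weeks, a culture medium kept without tumor, and the TCM group received tumor conditioned media (TCM), the same medium in which pieces of 4T1 tumors from the mammary fat pad of other mice had been kept, pooled over tumors. 4T1 is a mouse mammary carcinoma line that grows in BALB/c mice and spreads to the lung. TCM was used in the study to model a lung before metastasis arrives, and the labels name no injected tumor cells. The number of mice behind a library is not stated in the sources used here, and each group held 1 library. There was therefore no replicate, no test and no p-value, and treatment and library cannot be told apart.

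Cholesterol is built from acetyl-CoA through mevalonate, the isoprenoid diphosphates, squalene and lanosterol, and the final reactions trim and reduce the sterol ring. The transcription factor encoded by Srebf2 turns on most of these enzymes when sterol in the endoplasmic reticulum is low, while Insig1 holds it back and the liver X receptors (Nr1h3 and Nr1h2) turn on export when sterol is high. In the lung, alveolar type II (AT2) cells make surfactant, a film of phospholipid with some cholesterol, and alveolar macrophages take up and clear it.

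A droplet was kept at 500 or more unique molecular identifiers (UMIs, each marking a captured transcript), 200 or more genes and at most 10% mitochondrial UMIs, which left 7988 CM and 7707 TCM droplets of 31944151 and 36648719 UMIs in the whole libraries, with medians of 2085 and 2346 UMIs. Each was assigned to a cell class from 8 marker genes per class, and 6013 CM and 6312 TCM droplets were assigned. The classes are called "-like" because they rest on these markers alone. Of the 16 classes, 11 held at least 100 droplets in each library and are described. Every order of classes below is over these 11 unless all 16 are named, and smaller classes are given at the end. In each of the 11 classes its own markers had the highest summed level of all marker lists. The assignment by the same markers largely fixes this, so it is no check of the class. The share of droplets that sat at the limit of the assignment ran from 5.53% of the neutrophil-like droplets in TCM to 46.8% of the pericyte or smooth muscle-like droplets in CM. Neutrophil-like droplets numbered 251 in CM and 1446 in TCM. The passing droplets of the libraries shared 93 barcodes, 1.16% of CM and 1.21% of TCM. Free RNA, which enters droplets from broken cells, was estimated at 168 UMIs per CM droplet and 281 per TCM droplet, estimated over the classes other than AT2-like and AT1-like and given below as a share of a member's UMIs where it was large. At these amounts it was estimated to give at most 7.24% of the UMIs of Npc1, Srebf2, Insig1, Soat1, Npc2 and Apoe in AT2-like droplets. Within AT2-like droplets alone, the 7 erythroid and club genes behind the estimate gave 263 UMIs per CM droplet and 2211 per TCM droplet. Shares on that basis were not computed.

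Levels are UMIs of a gene per 100000 UMIs of its class (CP100k), with exact Poisson 95% intervals. Ratios are TCM over CM on the log2 scale, with conditional binomial 95% intervals. Both kinds of interval cover counting error only, not the spread between mice. A ratio was read as past the fold at 1.5-fold (0.58 on the log2 scale), for genes with at least 50 UMIs over both libraries in the class. Reads start at the 5′ end and each transcript counts once, so levels are not divided by length and are compared within a gene across classes.

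The start regions of 24 members were held in the RefSeq promoter table of build GRCm38.p6, each as the 250 bases before and 50 bases after an annotated start. The motifs searched, on both strands, were a sterol regulatory element (TCACNCCAC), the CCAAT box (CCAAT) and the E-box (CACGTG). None of the 3 contains another. The 4 regions below belong to the member with the sterol element and to 3 members whose values the results turn on, and the capitals mark the motif letters on either strand. All 4 regions reach across the annotated start into the transcribed part of the gene. Hmgcs1 lies at chr13:119690101-119690400 on the plus strand, Mvd at chr8:122443373-122443672 on the minus strand, Idi1 at chr13:8885356-8885655 on the plus strand and Srebf2 at chr15:82147019-82147318 on the plus strand.
Hmgcs1: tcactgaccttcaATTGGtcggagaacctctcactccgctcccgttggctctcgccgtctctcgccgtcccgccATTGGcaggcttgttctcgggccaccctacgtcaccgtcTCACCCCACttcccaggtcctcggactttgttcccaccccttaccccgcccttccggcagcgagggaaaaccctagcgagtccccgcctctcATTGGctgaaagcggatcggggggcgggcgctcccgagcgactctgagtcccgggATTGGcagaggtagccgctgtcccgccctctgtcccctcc
Mvd: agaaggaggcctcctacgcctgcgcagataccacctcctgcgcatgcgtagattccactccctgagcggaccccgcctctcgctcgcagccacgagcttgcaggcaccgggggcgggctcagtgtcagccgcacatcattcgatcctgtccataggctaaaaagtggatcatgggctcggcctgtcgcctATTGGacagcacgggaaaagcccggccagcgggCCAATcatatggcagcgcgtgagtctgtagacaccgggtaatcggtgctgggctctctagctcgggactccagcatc
Idi1: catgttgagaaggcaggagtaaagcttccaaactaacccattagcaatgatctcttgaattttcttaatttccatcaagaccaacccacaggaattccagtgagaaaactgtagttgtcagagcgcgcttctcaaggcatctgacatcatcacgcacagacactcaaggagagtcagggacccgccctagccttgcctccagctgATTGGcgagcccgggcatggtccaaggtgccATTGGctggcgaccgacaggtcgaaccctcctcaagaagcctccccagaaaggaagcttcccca
Srebf2: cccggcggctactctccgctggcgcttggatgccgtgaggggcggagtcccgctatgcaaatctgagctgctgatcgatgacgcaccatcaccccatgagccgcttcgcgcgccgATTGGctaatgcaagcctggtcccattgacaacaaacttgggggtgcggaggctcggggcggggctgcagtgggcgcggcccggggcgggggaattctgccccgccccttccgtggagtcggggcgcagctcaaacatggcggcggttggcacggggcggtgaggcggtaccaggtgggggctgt

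The sterol element was matched in the Hmgcs1 region alone, where TCACCCCAC starts at position -137 from the start. Only exact matches to the letters were counted, so an element that departs from them would be missed. No region was held for Fdps, Fdft1, Sqle, Stard4, Npc1 and Abcg1, which were not searched. Over all 32851 regions of the table, 1.24% held it. A CCAAT box was found in 14 of 15 synthesis genes with a region, the exception being Acat2, and in 41.1% of all 27025 genes of the table. Outside the synthesis enzymes it was found in Insig1, Srebf2, Npc2 and Soat1. An E-box was found in 6 of the 24 members, namely Abca1, Dhcr7, Hsd17b7, Insig1, Sc5d and Scap, and in 8.09% of all genes. These matches are letters in a window and not measured binding.

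The synthesis enzymes stood highest in AT2-like droplets in both libraries. Their summed level there was 106 CP100k (102 to 111) in CM and 109 CP100k (105 to 114) in TCM. The next described class was alveolar macrophage-like, at 56.8 CP100k in CM and 51.2 CP100k in TCM, with fibroblast-like at 56.5 and 46.7 CP100k. Ciliated-like droplets, too few to be described, were at 64.5 and 69.6 CP100k. Of the described classes the neutrophil-like class was lowest, at 22.9 CP100k in CM and 13.9 CP100k in TCM. Of the 18 enzymes, 11 had their highest level in AT2-like droplets in both libraries, and over all 30 members this held for 15.

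**Figure D1:**
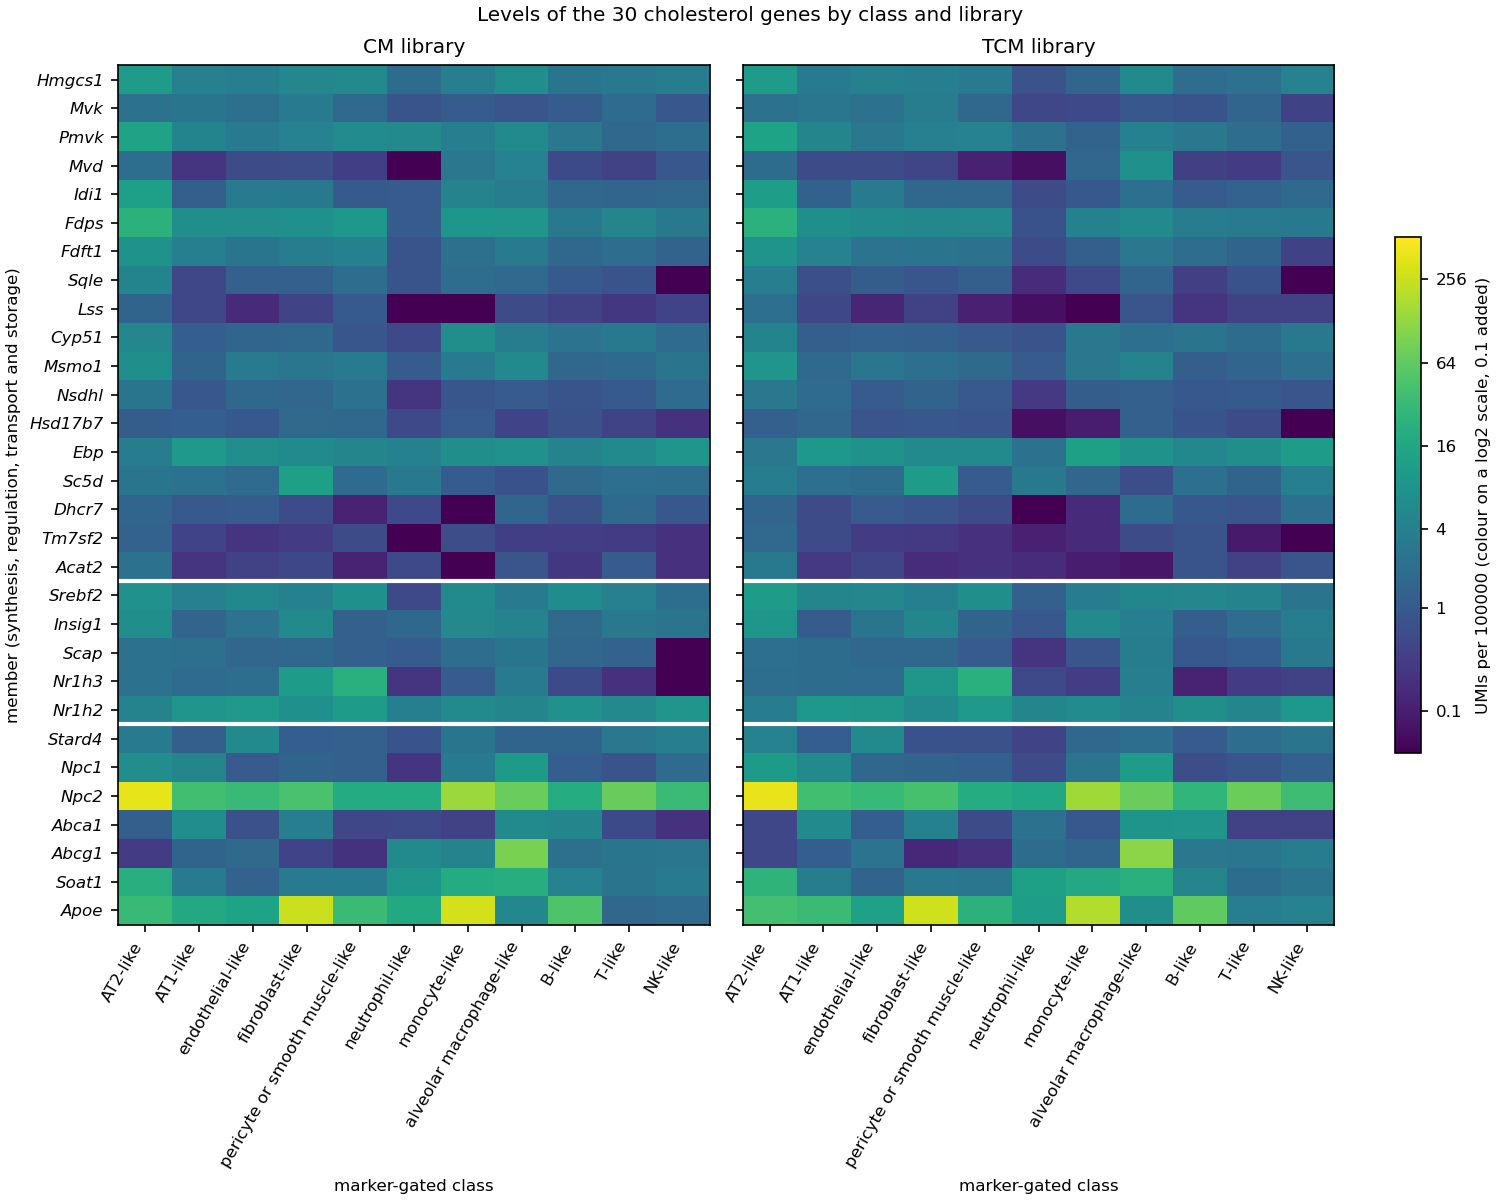
Levels of the 30 members (rows, ordered as synthesis, regulation, transport and storage) in the 11 described classes (columns) of the CM and TCM libraries, coloured by UMIs per 100000 on a log2 scale. The AT2-like column is the brightest for 15 members in both libraries, and Abcg1 is bright in the alveolar macrophage-like column, at 91.4 CP100k in CM and 116 CP100k in TCM.

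Early in the pathway, Hmgcs1, which makes HMG-CoA, was at 10.6 CP100k in CM and 11.0 CP100k in TCM in AT2-like droplets, against 6.63 and 5.92 in the next class, alveolar macrophage-like. Pmvk, a mevalonate-pathway kinase, was at 13.7 and 13.95 CP100k in AT2-like droplets, and no other class passed 6.10 CP100k in either library. Idi1, the isomerase of the isoprenoid diphosphates, was at 12.5 and 11.9 CP100k. Fdps, the enzyme that joins isoprenoid units into farnesyl diphosphate, was at 24.0 CP100k (21.8 to 26.4) in CM and 23.6 CP100k (21.6 to 25.7) in TCM, and its next class reached 9.53 and 6.90 CP100k. For each of these 4 genes the AT2-like interval lay above those of the other described classes in both libraries.

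The same held for Fdft1, the squalene synthase, at 7.61 and 8.32 CP100k in AT2-like droplets. Sqle, the squalene epoxidase, was at 4.57 and 3.76 CP100k there, and its CM interval overlapped that of monocyte-like droplets. Lss, the lanosterol synthase, Msmo1, a methylsterol oxidase, Nsdhl, a sterol dehydrogenase, Tm7sf2, a sterol reductase, and Acat2, the cytosolic thiolase that starts the pathway, were also highest in AT2-like droplets. Their intervals overlapped those of another class in at least 1 library. Mvk, the mevalonate kinase, was highest in fibroblast-like droplets at 3.28 and 3.55 CP100k, but its interval overlapped that of AT1-like droplets.

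A few enzymes had another leading class. Sc5d, a sterol desaturase, was at 12.6 CP100k (11.4 to 13.8) in CM and 11.1 CP100k (9.97 to 12.4) in TCM in fibroblast-like droplets, and at most 3.89 CP100k elsewhere. Mvd, the decarboxylase that ends the mevalonate steps, led in alveolar macrophage-like droplets at 4.34 and 7.06 CP100k, and its CM interval overlapped that of monocyte-like droplets. For Cyp51, the lanosterol demethylase, Hsd17b7, a sterol ketone reductase, Ebp, a sterol isomerase, and Dhcr7, the last reductase, the leading class differed between the libraries and its interval overlapped that of the next class.

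**Figure D2:**
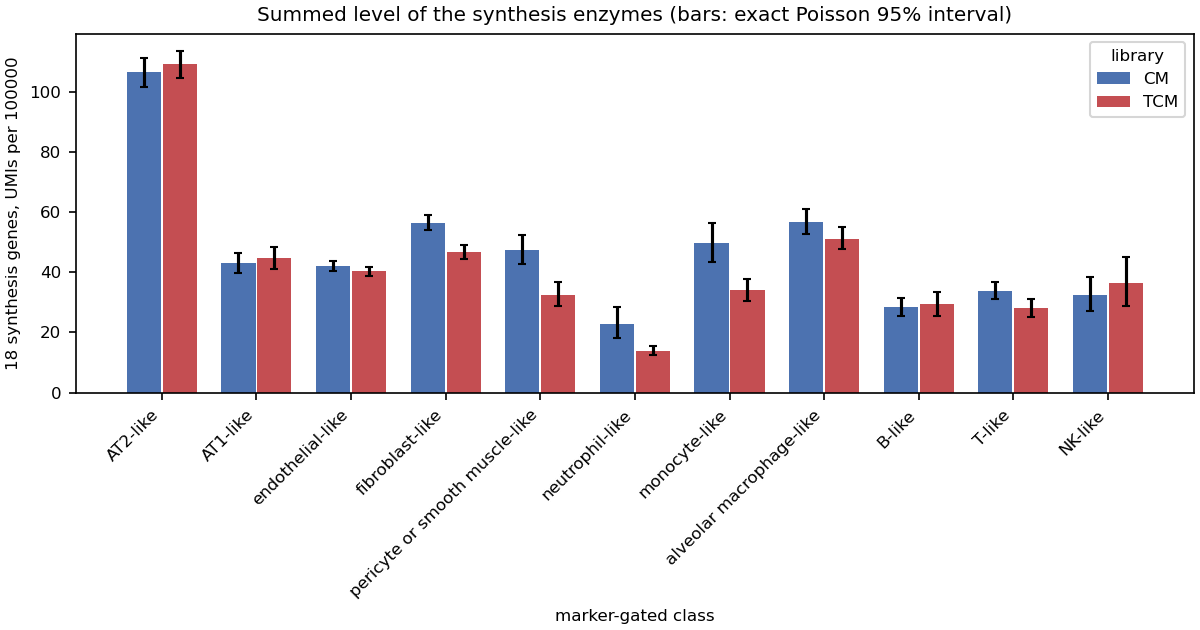
Summed level of the 18 synthesis enzymes, in UMIs per 100000, for each described class (x axis) and library (bar colour), with exact Poisson 95% intervals as error bars. The AT2-like bars stand at 106 and 109, and the fibroblast-like bar is lower in TCM (46.7) than in CM (56.5).

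Among the regulators, Srebf2 and Insig1 were highest in AT2-like droplets in both libraries, at 7.33 and 10.6 CP100k for Srebf2 and 6.88 and 9.16 CP100k for Insig1. In TCM these intervals lay above those of the other described classes, and in CM they overlapped those of several. Nr1h3, which encodes liver X receptor alpha, was at 22.5 CP100k (19.3 to 26.0) in CM and 22.4 CP100k (19.3 to 25.9) in TCM in pericyte or smooth muscle-like droplets. Fibroblast-like droplets came second at 11.2 and 9.15 CP100k. Nr1h2, the beta receptor, was also highest there, at 10.7 and 10.1 CP100k, but it lay between 3.62 and 10.7 CP100k across the classes. Scap, the sterol-sensing escort protein of the Srebf2 product, was highest in alveolar macrophage-like droplets at 2.67 and 3.46 CP100k, with overlapping intervals in the next class.

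The transport genes divided between macrophages, AT2 cells and stroma. Abcg1, which moves cholesterol out of cells (chr17:31057675-31117988, GENCODE vM21), was at 91.4 CP100k (86.3 to 96.7) in CM and 116 CP100k (110 to 121) in TCM in alveolar macrophage-like droplets. No other class passed 5.79 CP100k in CM or 3.46 CP100k in TCM. After thinning of each droplet to 1000 UMIs, 61.4% of 236 CM and 61.6% of 307 TCM alveolar macrophage-like droplets held an Abcg1 UMI, and unthinned 88.7% and 95.2%. In T-like droplets, a class without a role in surfactant clearance, the thinned shares were 2.67% of 525 and 3.01% of 399. The median depths were 4769.5 and 4391 UMIs in alveolar macrophage-like and 2634.5 and 2523 UMIs in T-like droplets.

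Npc2, the soluble lysosomal sterol carrier (chr12:84754562-84773152), was at 369 CP100k (360 to 378) in CM and 380 CP100k (372 to 388) in TCM in AT2-like droplets. Of the described classes, monocyte-like droplets followed at 144 and 152 CP100k. Npc1, its partner in the lysosomal membrane, was highest in alveolar macrophage-like droplets at 10.3 and 11.0 CP100k, and in TCM its interval overlapped that of AT2-like droplets at 10.2 CP100k. Soat1, which esterifies cholesterol for storage, was at 21.8 and 26.2 CP100k in AT2-like, 20.3 and 22.4 CP100k in alveolar macrophage-like and 18.7 and 17.1 CP100k in monocyte-like droplets, with overlapping intervals among these 3 classes in CM. Stard4, a cytosolic sterol carrier, was highest in endothelial-like droplets at 5.81 and 5.75 CP100k, with an interval that overlapped that of NK-like droplets in both libraries.

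Apoe, the lipoprotein component that carries cholesterol between cells (chr7:19696109-19699188), was at 263 CP100k (257 to 268) in CM and 273 CP100k (267 to 279) in TCM in fibroblast-like droplets. In monocyte-like droplets it was at 295 CP100k (279 to 311) in CM and 191 CP100k (183 to 199) in TCM, and 10 droplets held 37.8% and 25.9% of those UMIs. B-like droplets were at 48.7 and 63.9 CP100k, of which free RNA was estimated to give 7.19% and 11.3%. By contrast, alveolar macrophage-like droplets were at 5.26 and 6.92 CP100k, of which free RNA was estimated to give 26.3% and 45.8%. These shares use the same amount of free RNA for every class of a library. Within this class alone the estimate was 388 UMIs per droplet in CM and 216 in TCM, so the order of the shares is not read. Abca1, the other exporter, stayed between 0.233 and 8.48 CP100k over the described classes and had none whose interval stood above the rest.

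**Figure D3:**
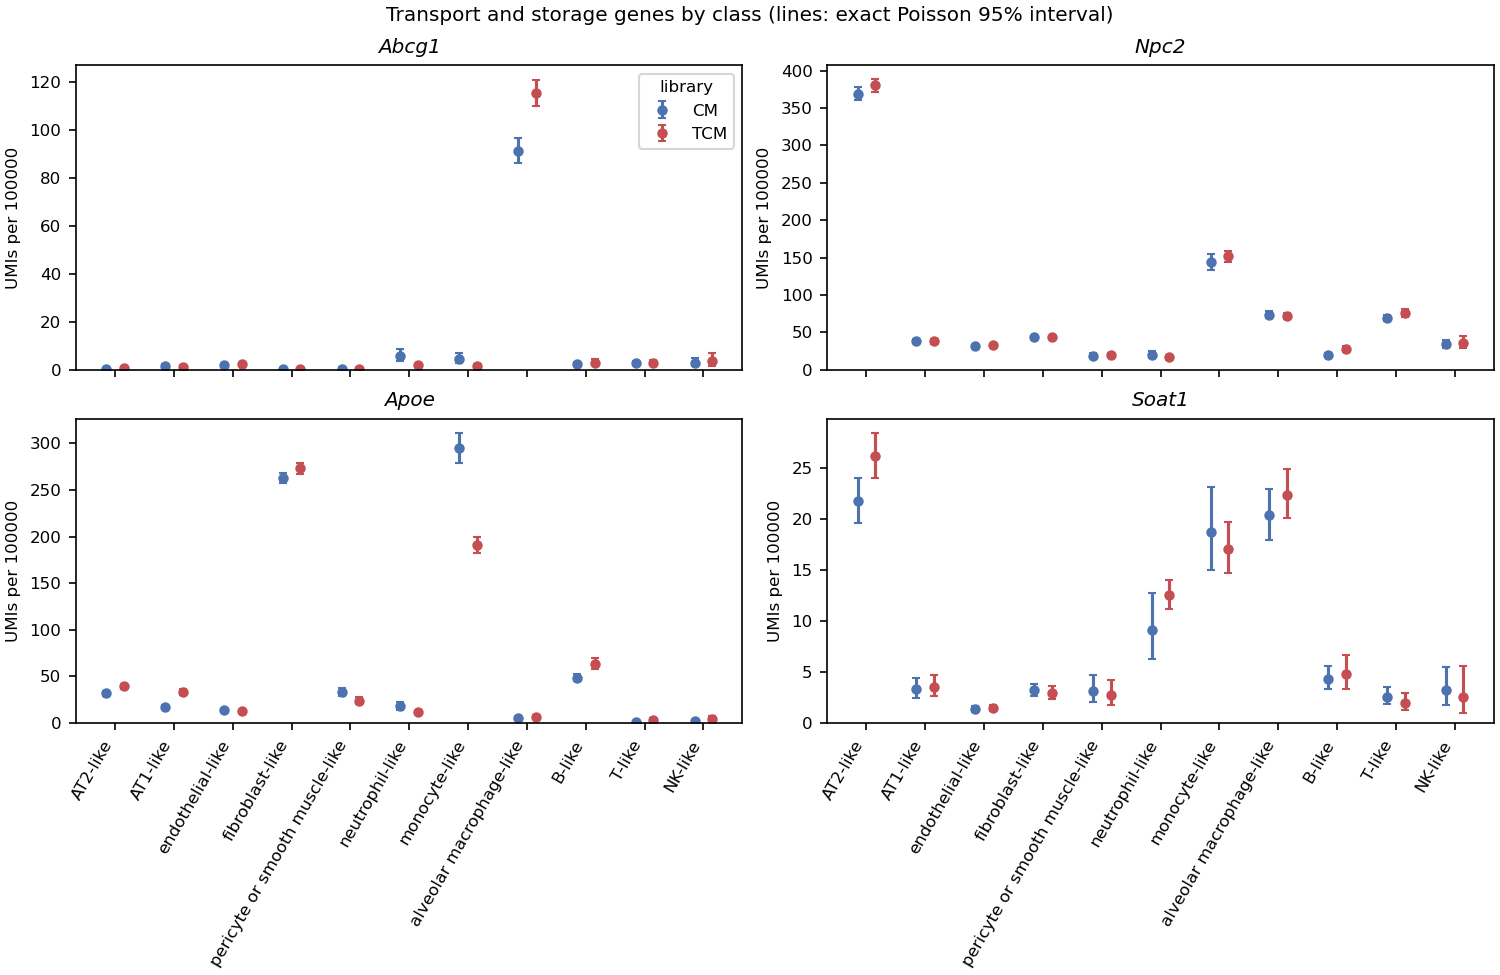
Levels of Abcg1, Npc2, Apoe and Soat1, in UMIs per 100000 (y axis of each panel), across the 11 described classes (x axis) in CM and TCM, with exact Poisson 95% intervals. Abcg1 reaches 91.4 and 116 CP100k in alveolar macrophage-like droplets and at most 5.79 CP100k in the other 10 classes, Npc2 peaks in AT2-like droplets, and Apoe peaks in fibroblast-like and monocyte-like droplets.

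Between the libraries, the AT2-like class had 1 member past the fold, Npc1, which was higher in TCM, and no synthesis enzyme or regulator past it. The summed synthesis level differed by 0.04 (-0.05 to 0.12) on the log2 scale, from 1887 UMIs in CM and 2320 in TCM. Of the 17 enzymes with at least 50 UMIs, 9 lay above 0 and 8 below, with a median ratio of 0.03, beside -0.03 over all 7153 genes tested. No enzyme passed the fold in either direction. Fdps, Pmvk, Idi1 and Hmgcs1, the highest of them, were at -0.03 (-0.21 to 0.16), 0.03 (-0.22 to 0.28), -0.07 (-0.33 to 0.20) and 0.06 (-0.22 to 0.34). The closest to the fold was Lss at 0.56 (-0.16 to 1.31), on 26 and 46 UMIs.

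The AT2-like droplets of the libraries differed in depth, with medians of 1813.5 UMIs in CM and 5053 in TCM. They also differed in their clusters, which were made without the members. A single cluster held 50.8% of these droplets in CM and 75.4% in TCM, and another held 32.2% and 10.4%. A further cluster held 28 of them in CM and 0 in TCM. Ratios within a cluster were not taken. Thinned to 1000 UMIs a droplet, with 132 CM and 56 TCM droplets left out, the summed synthesis ratio was 0.30 (0.09 to 0.52), from 333 and 410 UMIs. Fdps was then at 17.4 and 28.9 CP100k, a ratio of 0.74 (0.26 to 1.23), against -0.03 (-0.21 to 0.16) without thinning. As a mean over droplets, which weights every droplet alike without thinning, the summed ratio was 0.13. Thinning also weights the droplets alike and leaves out shallow ones. With droplets of at least 1000 UMIs and no thinning, 338 in CM and 339 in TCM, the summed ratio stayed inside the reported interval of -0.05 to 0.12. The joint part of weighting and depth in the thinned value was not tested. The club marker list, which marks another airway secretory cell, was at 404 CP100k in CM and 1565 CP100k in TCM in these droplets, and the neutrophil list was at 31.8 and 132 CP100k. The part of neutrophil RNA in the values was not tested. Leaving out droplets positive for any club marker, a choice made after seeing the data, left the summed ratio at 0.04 and that of Npc1 at 0.66.

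In AT2-like droplets 1 member passed the fold upward and 0 downward, where 5.34% and 7.48% of all genes tested did. Npc1 was at 6.43 CP100k (5.30 to 7.72) in CM and 10.2 CP100k (8.93 to 11.7) in TCM, from 114 and 218 UMIs, a ratio of 0.67 (0.34 to 1.01). Thinned, 5.88% of 340 CM and 11.5% of 339 TCM droplets held an Npc1 UMI, against 17.4% and 34.2% unthinned. In T-like droplets, which had little of it, the thinned shares were 0.952% and 1.003%, at median depths of 2634.5 and 2523 UMIs. The ratio of Npc1 stayed between 0.50 and 1.14 over the settings tried and missed the fold in droplets with at most 5% mitochondrial UMIs.

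Srebf2 and Insig1 lay within the fold in AT2-like droplets but with intervals above 0. Srebf2 was at 7.33 CP100k in CM and 10.6 CP100k in TCM, from 130 and 226 UMIs, a ratio of 0.54 (0.22 to 0.86). Insig1 was at 6.88 and 9.16 CP100k, from 122 and 195 UMIs, a ratio of 0.41 (0.08 to 0.75). Thinned, their ratios were 0.84 (-0.01 to 1.74) on 19 and 34 UMIs and 0.33 (-0.50 to 1.16) on 24 and 30 UMIs. The other regulators had intervals across 0, with Scap at -0.13 (-0.77 to 0.51), Nr1h3 at -0.16 (-0.80 to 0.48) and Nr1h2 at -0.28 (-0.75 to 0.19). Thinned, Scap was at 0.68 (-1.11 to 2.64), Nr1h3 at -0.84 (-2.77 to 0.89) and Nr1h2 at 0.20 (-0.93 to 1.34), each on at most 16 UMIs a library. The median of the 5 regulators was -0.13 without thinning.

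Of the 5 transport and storage genes with enough UMIs in AT2-like droplets, all lay above 0. Soat1 gave 386 UMIs in CM and 557 in TCM, a ratio of 0.27 (0.08 to 0.46), and Npc2 gave 6544 and 8089 UMIs, a ratio of 0.04 (-0.00 to 0.09). Stard4 was at 3.33 and 4.32 CP100k, a ratio of 0.38 (-0.11 to 0.88). Apoe was at 31.8 and 39.4 CP100k, a ratio of 0.31 (0.15 to 0.47), but 10 droplets held 25.7% of its UMIs in CM and 44.0% in TCM. Its ratio was 0.06 (-0.34 to 0.46) thinned and -0.09 as a mean over droplets. The interstitial macrophage marker list was at 3.10 CP100k in CM and 16.3 CP100k in TCM in AT2-like droplets, and its part in the Apoe values was not tested. Abca1 and Abcg1 were sparse there, with 22 UMIs in CM and 11 in TCM for Abca1 and 6 and 11 for Abcg1, and were not counted.

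**Figure D4:**
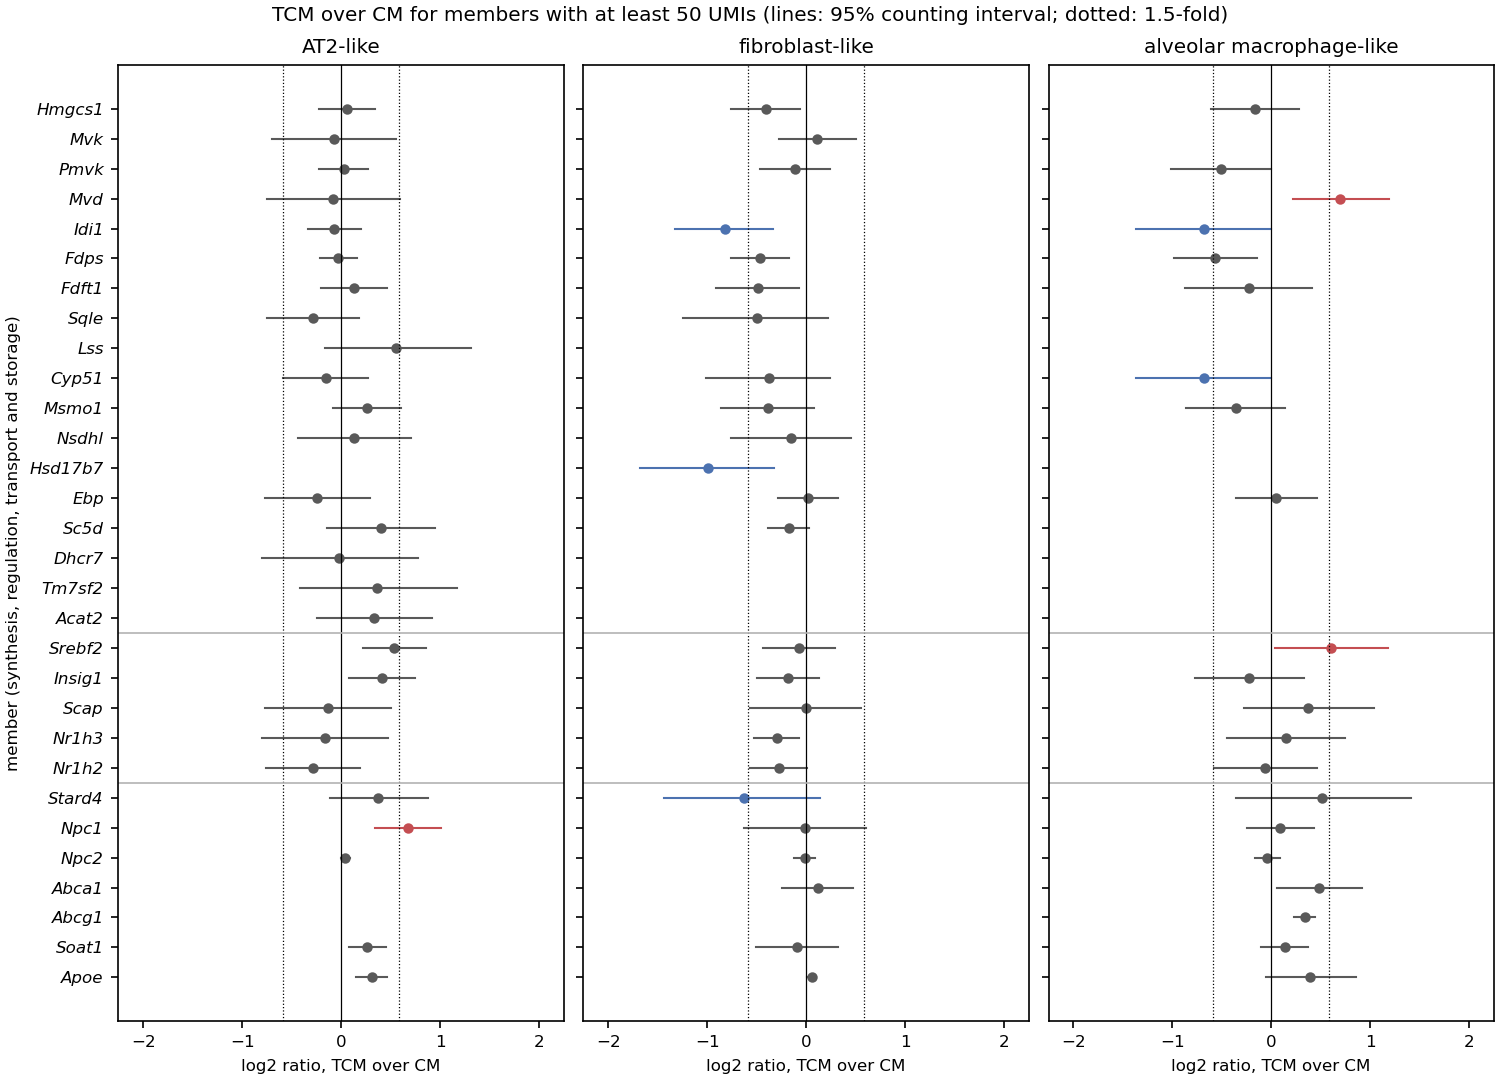
Log2 ratios of TCM over CM (x axis) for members with at least 50 UMIs (y axis, ordered by role) in AT2-like, fibroblast-like and alveolar macrophage-like droplets, as points with 95% counting intervals, with dotted lines at 1.5-fold and colour for points past it. In AT2-like droplets Npc1 lies past the upper line at 0.67, while in fibroblast-like droplets 11 of 13 enzymes lie below 0.

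In alveolar macrophage-like droplets 2 of the 21 members with enough UMIs, Mvd and Srebf2, were past the fold upward in TCM and 2, Idi1 and Cyp51, downward. In this class 8.37% of 5985 genes tested were past the fold upward and 1.67% downward, and the median over all genes was 0.10. The upward share of the members was thus near that of all genes. Mvd gave 57 UMIs in CM and 106 in TCM, at 4.34 and 7.06 CP100k, a ratio of 0.70 (0.22 to 1.19). Srebf2 gave 42 and 73 UMIs, at 3.20 and 4.86 CP100k, a ratio of 0.60 (0.04 to 1.19). Srebf2 missed the fold in droplets with at most 5% mitochondrial UMIs, at 0.47, and relative to the median of all genes, at 0.50. Mvd ran from 0.60 to 1.01 over the settings tried.

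Idi1 and Cyp51 both gave 46 UMIs in CM and 33 in TCM, at 3.51 and 2.20 CP100k, a ratio of -0.67 (-1.36 to 0.00). Thinned, Idi1 was at 0.11 (-1.77 to 2.10) on 5 and 7 UMIs. Fdps was just within at -0.56 (-0.99 to -0.14), and Pmvk was at -0.51 (-1.01 to -0.01). Hmgcs1 was at -0.16 (-0.60 to 0.28) and Ebp at 0.05 (-0.35 to 0.46). Of the 9 enzymes with enough UMIs, 7 lay below 0, with a median of -0.36, and the summed ratio was -0.15 (-0.30 to -0.00). Thinned, the summed ratio was -0.04 (-0.37 to 0.29) and that of Hmgcs1 was 0.26 (-0.70 to 1.27). The neutrophil marker list was at 12.4 CP100k in CM and 39.8 CP100k in TCM in these droplets and the AT2 list at 49.1 and 94.0 CP100k, and their part in the values was not tested.

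Of the 7 transport and storage genes in this class, 6 lay above 0, with a median of 0.34. Abcg1 gave 1199 UMIs in CM and 1736 in TCM, a ratio of 0.34 (0.23 to 0.45), and its thinned ratio was 0.10 (-0.14 to 0.34) on 243 and 339 UMIs. Abca1 gave 76 and 122 UMIs, a ratio of 0.49 (0.06 to 0.92). Soat1 was at 0.14 (-0.10 to 0.37), Npc1 at 0.09 (-0.24 to 0.43), Npc2 at -0.04 (-0.17 to 0.09) and Apoe at 0.40 (-0.06 to 0.86), and Stard4 was at 0.51 (-0.36 to 1.42) on 19 and 31 UMIs. None passed the fold. Among regulators, Insig1 was at -0.22 (-0.77 to 0.33) Nr1h2 at -0.06 (-0.58 to 0.46), Scap at 0.38 (-0.27 to 1.04) and Nr1h3 at 0.15 (-0.44 to 0.74).

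The summed synthesis level of fibroblast-like droplets was lower in TCM. The summed level was 56.5 CP100k (54.0 to 59.0) in CM and 46.7 CP100k (44.3 to 49.2) in TCM, a ratio of -0.27 (-0.37 to -0.18). Of the 13 enzymes with enough UMIs, 11 lay below 0, with a median of -0.39, beside -0.00 over all 9080 genes tested. Here the share of genes past the fold was 3.16% upward and 2.76% downward. The neutrophil marker list was at 66.6 CP100k in CM and 124 CP100k in TCM in these droplets, and its part in the values was not tested. The medians of depth were 3251 UMIs in CM and 4582 in TCM, and thinned to 1000 UMIs the summed ratio was -0.12 (-0.34 to 0.10) on 388 and 306 UMIs. A single cluster held 60.2% of the fibroblast-like droplets in CM and 59.3% in TCM. Without the 3 fibroblast clusters that held mostly CM droplets, a choice made after seeing the data that kept 889 CM and 662 TCM droplets, the ratio was -0.28.

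Hsd17b7 gave 64 UMIs in CM and 28 in TCM, a ratio of -0.99 (-1.68 to -0.33), and Idi1 gave 106 and 52, a ratio of -0.82 (-1.33 to -0.33). Stard4 was the third member past the fold, with 41 and 23 UMIs and a ratio of -0.63 (-1.43 to 0.14). Idi1 was at -0.49 thinned, and Stard4 was at -0.36 thinned, -0.44 as a mean over droplets and -0.579 without the highest doublet scores, which are inside the fold. No member was past the fold upward. The 5 regulators lay below 0, from Nr1h3 at -0.30 (-0.52 to -0.07) to Scap at -0.00 (-0.57 to 0.56). Apoe, on 9203 and 8302 UMIs, was at 0.06 (0.01 to 0.10), and Abca1 was at 0.12 (-0.25 to 0.48).

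In endothelial-like droplets 2 members were past the fold upward, where 2.82% of 10435 genes were, and 1 downward, where 2.3% were. Npc1 gave 60 and 109 UMIs, a ratio of 0.62 (0.15 to 1.10), and free RNA was estimated to give 10.5% and 17.2% of them. Abca1 gave 42 and 81 UMIs, a ratio of 0.70 (0.15 to 1.28). Nsdhl gave 92 and 72 UMIs, a ratio of -0.60 (-1.06 to -0.14). Each of these 3 calls was lost under some settings. Thinning kept those of Npc1, at 1.21 (0.27 to 2.22) on 14 and 34 UMIs, and Abca1, at 0.64 (-0.52 to 1.87) on 11 and 18. Npc1 and Abca1 were at 0.57 and 0.41 in droplets with at most 5% mitochondrial UMIs and at 0.54 and 0.53 without the highest doublet scores. Npc1 was also below the fold by cluster, as a mean over droplets and after free RNA subtraction, at 0.52 to 0.54. Nsdhl was at -0.29 thinned, -0.47 at a lead of 3 markers, -0.51 as a mean over droplets and -0.56 by cluster. The summed synthesis ratio was -0.06 (-0.14 to 0.02), from 42.1 CP100k in CM and 40.4 CP100k in TCM.

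In AT1-like droplets, the thin cells of the alveolar wall, the summed synthesis ratio was 0.05 (-0.11 to 0.22). A single cluster held 70.1% of these droplets in CM and 89.4% in TCM, and another held 43 in CM and 0 in TCM. Apoe alone passed the fold, at 0.97 (0.74 to 1.20) from 258 and 429 UMIs, where 3.49% of 6788 genes were past it upward and 5.13% downward. Of these UMIs, 10 droplets held 44.2% in CM and 69.7% in TCM. The thinned share of droplets with an Apoe UMI was 11.5% of 286 in CM and 11.9% of 201 in TCM. The thinned ratio was 0.88 (0.24 to 1.54) on 37 and 48 UMIs. With classes taken from clusters the ratio was -0.01. The interstitial macrophage marker list was at 3.29 CP100k in CM and 25.0 CP100k in TCM in AT1-like droplets. Interstitial macrophage-like droplets themselves held Apoe at 1550 and 1874 CP100k, and the part of their RNA in the AT1-like values was not tested.

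Neutrophil-like droplets had the lowest synthesis sum, with 83 UMIs in CM and 351 in TCM, a ratio of -0.72 (-1.06 to -0.35). Free RNA was estimated at 11.6% of all UMIs of this class in CM and 16.1% in TCM, and the ratio was -1.08 after its subtraction. In this class 15.5% of 4165 genes were past the fold upward and 21.9% downward. Abca1 gave 2 UMIs in CM and 58 in TCM, a ratio of 2.06 (0.14 to 5.14). Downward were Pmvk at -1.23 (-1.99 to -0.42) on 20 and 59 UMIs and Ebp at -0.80 (-1.63 to 0.13) on 15 and 60. The other 2 were Abcg1 at -1.57 (-2.34 to -0.76) on 21 and 49 UMIs and Apoe at -0.59 (-0.98 to -0.18) on 65 and 300 UMIs. In TCM free RNA was estimated to give 82.6% of the Abcg1 and 74.1% of the Apoe UMIs of this class, so most of these counts were at the level of free RNA.

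In T-like droplets Apoe was at 1.17 (0.46 to 1.91) on 28 and 44 UMIs, where 3.64% of 5737 genes were past the fold upward and 4.51% downward. The free RNA estimate was larger than the count in both libraries, at 153% and 155% of it, so these UMIs are read as background. Cyp51 was at -0.65 (-1.43 to 0.08) on 52 and 23 UMIs and Insig1 at -0.59 (-1.36 to 0.13) on 52 and 24, both with intervals across 0. The summed synthesis ratio was -0.27 (-0.47 to -0.07), and 0.00 (-0.38 to 0.38) when thinned.

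The classes outside this comparison gave their sums only, and no alternative setting was run for them. Pericyte or smooth muscle-like droplets had a summed synthesis ratio of -0.54 (-0.77 to -0.31) and monocyte-like droplets of -0.55 (-0.79 to -0.30). B-like droplets were at 0.05 (-0.20 to 0.30) and NK-like droplets at 0.16 (-0.25 to 0.56).

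Other genes of the pathway were taken from lists that do not overlap the members. In AT2-like droplets 5 further enzymes of synthesis, 11 of 15 genes of uptake and transport, 6 of 8 regulators and 1 of 5 oxysterol enzymes had enough UMIs. None was past the fold upward, and 3 of the uptake and transport genes were past it downward, where 5.34% and 7.48% of all genes tested were. These were Pltp, which moves phospholipid between lipoproteins, at -0.79 on 617 and 427 UMIs, Lrp1, a lipoprotein receptor, at -0.64 on 56 and 43, and Lpl, the lipoprotein lipase, at -0.65 on 60 and 46. In alveolar macrophage-like droplets 3 of these enzymes, 14 uptake and transport genes, 6 regulators and 2 oxysterol enzymes had enough UMIs. Of them 1, the exporter gene Abcg2, was past the fold upward, at 0.73 on 20 and 38 UMIs, where 8.37% of all genes tested were. In fibroblast-like droplets 5, 14, 5 and 4 genes of these lists had enough UMIs, and 0 passed the fold in either direction. Of all genes tested there, 3.16% passed it upward and 2.76% downward. The ratios of these further genes are given without intervals, and no alternative setting was run for them.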

How the data were processed

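Lung cells of 1 CM and 1 TCM library were captured with a droplet 5′ kit. The authors deposited raw UMI counts per gene and barcode, made with Cell Ranger (the matrix header names version 4) on mm10, build GRCm38.p6, and the submitters' notes also name Seurat. The deposited counts were used with no change.

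Droplets with 500 or more UMIs, 200 or more genes and at most 10% mitochondrial UMIs were kept, after the study's stated limits. A marker was positive when its share of a droplet exceeded its mean over all kept droplets. A droplet took a class with at least 3 positive markers and at least 2 more than any other class, and classes with 100 droplets in each library were described. The members and lists were chosen with earlier results of these data known. Every member is accounted for, and full values go to members past the fold in any of 7 main classes, the 3 highest of each role in AT2-like and alveolar macrophage-like droplets, and Srebf2, Insig1, Abca1, Abcg1 and Apoe. Pathway genes outside the members are named when past the fold in either of those classes.

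UMIs were summed per class and divided by all UMIs of the class. Intervals were exact Poisson for levels and conditional Clopper-Pearson binomial for ratios, at 95%. The ratio intervals were run on simulated Poisson counts, which the intervals themselves assume. That run checked the calculation only, and it did not cover UMIs that gather in a few droplets. Free RNA was estimated from barcodes with at most 50 UMIs and from 7 erythroid and club genes. Thinning drew 1000 UMIs from each droplet and left out shallower ones. Scrublet called 0.0250% of CM and 0 TCM droplets and had not worked, so doublets were limited only by the required lead, and an alternative left out the 6% with the highest scores in each library. Classes by cluster used Leiden clustering without the members. Python 3.11.15, numpy 2.4.6, scipy 1.17.1, pandas 2.3.3, scanpy 1.11.5, leidenalg 0.10.2 and matplotlib 3.10.9 were used. With 1 library per group no test was made.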

Additional observations from a re-analysis of the deposited data

Results flagged for a closer look

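Outside the described classes, 2 member values were flagged as higher in TCM, in droplets that no comparison used. Only values at least 1.5-fold higher in TCM were searched for, so lower values could not be flagged. Among the lower ones, Apoe in club-like droplets was at -3.59 (-4.97 to -2.46) on 60 UMIs in CM and 7 in TCM. Nsdhl in droplets assigned to no class was at -0.86 (-1.40 to -0.34) on 105 and 45 UMIs, and Npc2 in ciliated-like droplets is given below. In ciliated-like droplets, of which 47 in CM and 41 in TCM were assigned, Srebf2 gave 26 and 28 UMIs, at 4.45 and 8.12 CP100k, a log2 ratio of 0.87 (0.05 to 1.70). In droplets assigned to no class, Abca1 gave 97 UMIs in CM and 127 in TCM, at 1.85 and 3.11 CP100k, a log2 ratio of 0.75 (0.36 to 1.15). The intervals cover counting error only, and the differences were not tested.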

How the results depend on the processing

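Each alternative changed 1 setting, although thinning also leaves out shallow droplets and weights the rest alike. Of the alternative values of the summed synthesis ratio, 57 stayed inside and 8 fell outside the counting interval of the reported value, and the cause was not tested. Thinning to 1000 UMIs gave 0.30 in AT2-like, 0.29 in AT1-like, -0.12 in fibroblast-like and 0.0023 in T-like droplets. A mean over droplets gave 0.13 in AT2-like and -0.064 in T-like droplets, classes from clusters gave 0.14 in AT2-like droplets, and free RNA subtraction gave -1.08 in neutrophil-like droplets. Over all alternatives the fibroblast-like ratio ran from -0.31 to -0.12 and the alveolar macrophage-like ratio from -0.25 to -0.04.

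Of 41 named member ratios, 357 alternative values stayed inside that interval, 21 fell outside it and 6 turned the sign of a ratio past 1.5-fold. Abcg1 in AT2-like droplets was -0.00035 as a mean over droplets and -0.10 after free RNA subtraction. Its thinned value, counted among the 6, was -0.58 on 0 UMIs in CM and 2 in TCM. The sum of 0 was replaced there by 3 UMIs, so this sign came from the replacement and is not read. Apoe by clusters was -0.0076 in AT1-like and -0.28 in T-like droplets, and Idi1 in alveolar macrophage-like droplets was 0.11 thinned.

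Counts of members past the fold moved by over 1.5 times in 69 cases and did not in 103. The share of all genes past the fold was computed for the main setting only. The counts in this and the next paragraph therefore cannot be set beside it, and they are not read as changes in the members. Thinned counts include members on few UMIs, such as Ebp on 8 and 16 and Acat2 on 7 and 14 in AT2-like droplets. Upward in AT2-like droplets they were 0 at 5% mitochondrial UMIs and at 2-fold, 6 thinned, 5 as a mean over droplets, and 2 at 1000 UMIs, by cluster, without the highest doublet scores, at a lead of 3, relative to the median of all genes, and at a gene minimum of 10 or 1 UMIs. Downward there they were 2 thinned and 1 at the lower gene minimums. In AT1-like droplets the upward count was 0 by cluster and at 2-fold, 4 thinned and 3 as a mean or at the lower minimums, and the downward count was 2 by cluster and 1 in the other 4. In endothelial-like droplets the upward count was 0 at 5% mitochondrial UMIs, without doublet scores and at 2-fold, and 1 by cluster, as a mean and after free RNA subtraction, and the downward count was 0 by cluster, at a lead of 3 and at 2-fold. In fibroblast-like droplets the upward count was 1 thinned, and the downward count was 6 by cluster, 5 at the lower minimums and 0 at 2-fold.

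In alveolar macrophage-like droplets the upward count was 1 at 5% mitochondrial UMIs and relative to the median, 4 by cluster, as a mean and at the lower minimums, 6 thinned and 0 at 2-fold, and the downward count was 4 relative to the median and 0 at 2-fold. In neutrophil-like droplets the upward count was 2 at 1000 UMIs, by cluster, as a mean and relative to the median, and 4 at the lower minimums, and the downward count was 2 as a mean and at 2-fold, 10 at a minimum of 10 UMIs and 12 at 1 UMI. In T-like droplets the upward count was 0 after free RNA subtraction, and the downward count was 4 at 5% mitochondrial UMIs, after free RNA subtraction and at a minimum of 10 UMIs, 5 at 1 UMI, 1 by cluster, thinned, as a mean and relative to the median, and 0 at 2-fold. No paired analysis was possible because each group held 1 library. Leaving out a library was not possible for the same reason. Members with few UMIs could not be compared at this depth, and the intervals hold counting error only.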

Other observations

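Classes with under 100 droplets in a library were outside the comparisons. Interstitial macrophage-like droplets, 99 in CM and 97 in TCM, had the highest Apoe level of the 16 classes, from 7270 and 8854 UMIs, at 1550 CP100k (1515 to 1586) in CM and 1874 CP100k (1835 to 1913) in TCM, a log2 ratio of 0.27 (0.23 to 0.32). Of these UMIs, 10 droplets held 37.1% and 31.3%. Abca1 there was at 11.9 and 10.2 CP100k, a ratio of -0.23 (-0.82 to 0.35). Npc1 there gave 13 and 29 UMIs, a ratio of 1.15 (0.16 to 2.21), below the 50 UMIs asked of a member.

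Ciliated-like droplets had a summed synthesis level of 64.5 CP100k in CM and 69.6 CP100k in TCM, a ratio of 0.11 (-0.13 to 0.35), with Ebp at 21.4 and 26.4 CP100k. Npc2 there was at 106 and 58.0 CP100k, a ratio of -0.87 (-1.11 to -0.64), and 10 droplets held 84.1% and 68.0% of its UMIs. Mesothelial-like droplets held Apoe at 119 and 125 CP100k. In droplets assigned to no class, 1975 in CM and 1395 in TCM, the summed synthesis level was 50.4 and 42.0 CP100k, a ratio of -0.27 (-0.35 to -0.18).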
